A study of Rattus norvegicus with 30 samples.

Results

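The fatty acid-binding proteins followed here are Fabp1, Fabp2, Fabp3, Fabp4, Fabp5 and Fabp7, in primary rat hepatocytes exposed to diisononyl phthalate (DINP), a plasticiser. Members were taken by name: each probe set that the platform annotation assigns to exactly 1 of these genes was used, whatever its value. That gave 6 probe sets, 1 for each of the 6 genes, among 14217 named genes on the array, and all 6 passed the filter on dim signals. The cells were cryopreserved hepatocytes of male Sprague Dawley rats, plated on collagen under Matrigel, dosed on the third day of culture and harvested 24 or 48 h later. At each time there were 5 arrays from cells given the vehicle, 1% DMSO, 5 from cells given DINP at 25 mM and 5 at 100 mM, which makes 30 arrays in 6 groups. The doses and their unit are as the labels give them, and no file used here allows a check of the unit. The labels describe the 5 wells of a group as separate cultures and do not name donor animals. Each p-value thus rests on the spread between wells, pooled over the 6 groups of 5. The animals' age is not stated in the labels.

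Fatty acid-binding proteins are small cytosolic proteins that hold a fatty acid or a related ligand inside a barrel of beta strands and carry it between membranes, enzymes and, for some members, nuclear receptors. They are named for the tissue in which each is most abundant: Fabp1 in liver, Fabp2 in small intestine, Fabp3 in heart and muscle, Fabp4 in adipocytes and macrophages, Fabp5 in epidermis, and Fabp7 in brain. Fabp1 is a known target of the fatty acid receptor PPAR-alpha, which phthalate metabolites activate in rodent liver, and PPAR-alpha binds with RXR to a direct repeat of a hexamer.

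The stretches just before the annotated starts of Fabp1, Fabp2 and Fabp3 are shown because Fabp1 and Fabp3 had the largest fitted rises under DINP at 48 h and Fabp2 was the other member called higher at both doses of that time. RefSeq sequences of the assembly GRCr8 matched 4 of the 6 genes, and each line gives the 250 bases before the start, 5′ to 3′, on the plus strand: Fabp1 at chr4:104749090-104749339, Fabp2 at chr2:213724379-213724628 and Fabp3 at chr5:147935875-147936124. Capitals mark a direct repeat with 1 base between the hexamers, searched on both strands with the hexamer AGGNCA or the looser AGNNCA (N is any base), and the TATA box letters TATAAA.
Fabp1: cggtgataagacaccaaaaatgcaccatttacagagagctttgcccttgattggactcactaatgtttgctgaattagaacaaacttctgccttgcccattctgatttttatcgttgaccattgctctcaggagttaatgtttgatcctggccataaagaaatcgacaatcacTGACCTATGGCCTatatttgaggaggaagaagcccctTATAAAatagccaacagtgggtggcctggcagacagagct
Fabp2: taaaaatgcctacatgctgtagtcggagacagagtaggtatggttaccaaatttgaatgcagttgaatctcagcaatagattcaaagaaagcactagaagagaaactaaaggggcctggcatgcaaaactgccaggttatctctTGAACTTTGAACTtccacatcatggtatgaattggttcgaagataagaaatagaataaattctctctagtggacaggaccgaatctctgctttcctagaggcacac
Fabp3: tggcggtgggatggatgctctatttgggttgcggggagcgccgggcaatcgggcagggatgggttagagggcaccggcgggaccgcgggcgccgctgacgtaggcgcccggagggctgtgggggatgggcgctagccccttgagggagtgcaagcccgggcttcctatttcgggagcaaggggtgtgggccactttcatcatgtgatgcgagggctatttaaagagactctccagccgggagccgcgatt
In the Fabp1 window the repeat lies on the minus strand, 77 to 65 bases before the start, where it reads AGGCCATAGGTCA, and TATAAA lies 40 to 35 bases before the start. The Fabp2 window holds only the looser repeat, 106 to 94 bases before the start on the minus strand, reading AGTTCAAAGTTCA. In the Fabp3 window none of these letters was found. The stricter repeat occurs in 0.368% of 33465 promoter windows of the same length, the looser one in 2.23% and TATAAA in 12.9%. A window that matches the stricter letters also matches the looser ones, and in Fabp1 the repeat contains the single hexamer AGGTCA, which occurs in 14.1% of windows. For Fabp7 the hexamer AGGTCA alone was found. The letters were chosen after the windows had been read, and a match describes letters and not a bound site.

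Arrays had been scaled to a common level before deposit, and 1 RNA control moved with DINP. The 2% trimmed mean of the signals, which that scaling sets, lay between 1500.65 and 1500.76 on all 30 arrays. The median signal of an array ran from 346 to 426, and the correlation of log2 signals between any pair of arrays lay between 0.942 and 0.960. All 12 hepatocyte markers were tested. Albumin (Alb), at a mean log2 signal of 16.72, did not pass the test in any comparison of DINP with the vehicle, but Tat and Tdo2, enzymes of amino acid breakdown, fell in all 4, by 0.67 to 0.92. At 48 h the serum protein Ahsg also fell, by 0.38 at 25 mM and 0.26 at 100 mM, and the apolipoprotein Apoa2 rose, by 0.51 and 0.44. Apob rose at 25 mM and 48 h only (0.30, adjusted p = 0.0403), and Fgb fell at 100 mM and 48 h only (-0.16, adjusted p = 0.0366). The signal of the array's 5S rRNA control was 1037 ± 180 (SD, n = 5) in the vehicle at 24 h against 2160 ± 574 at 25 mM and 2143 ± 461 at 100 mM, and at 48 h 847 ± 98.6 against 1845 ± 215 and 1613 ± 335. Its part in the results below was not tested. The log2 ratio of the 3′ to the 5′ control of Gapdh had group means between 0.165 and 0.189. In RNA from whole wells, fewer cells of a type and less RNA per cell cannot be told apart.

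**Figure D1:**
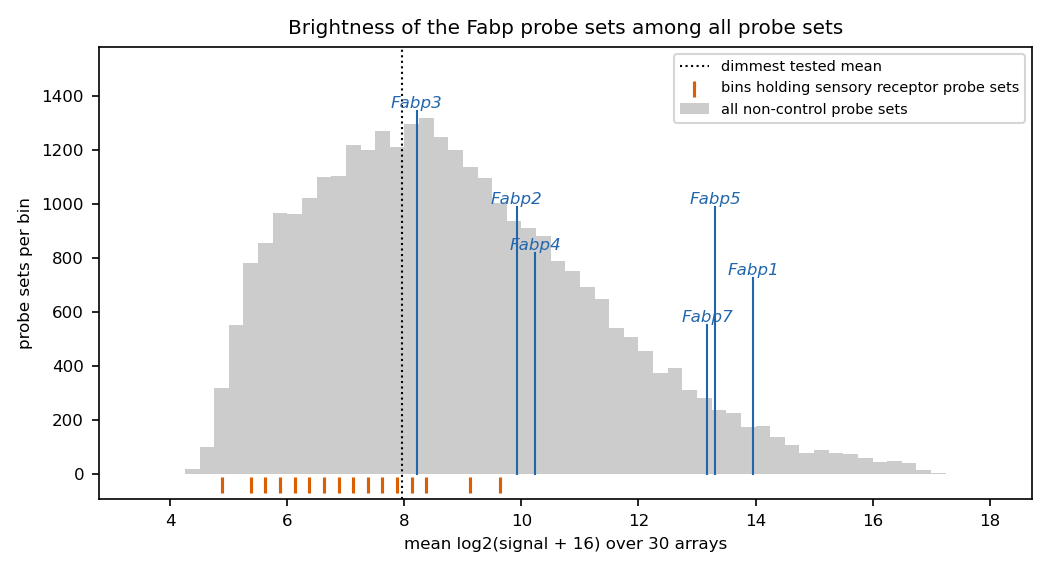
Histogram of the mean log2(signal + 16) over 30 arrays for all non-control probe sets (probe sets per bin), with the 6 Fabp probe sets as labelled vertical lines, the dimmest tested mean as a dotted line, and ticks under the axis for bins that hold sensory receptor probe sets. Fabp3, at 8.21, lies just above the dimmest tested mean of 7.96, while Fabp1, Fabp5 and Fabp7 lie in the bright tail.

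Fabp3 was the only member near background. A group was counted as near background where its mean log2(signal + 16) fell below the dimmest mean that passed the filter, 7.96, or below the 95th percentile of 27 probe sets for olfactory, vomeronasal and taste receptors, genes with little or no expression in liver. Of these 27 probe sets, 5 passed the filter themselves, and the highest averaged 9.67. Fabp3 averaged 7.59 in the vehicle at 24 h, 7.87 at 25 mM and 8.67 at 100 mM, where the receptor percentiles were 9.07, 9.12 and 9.13. At 48 h it averaged 6.95 in the vehicle, below the receptor percentile of 8.43, but 9.22 at 25 mM and 8.95 at 100 mM, above the percentiles of 8.69 and 8.74. At 100 mM and 48 h 1 array, replicate 1 at 8.42, lay below the receptor percentile. The mean of Fabp3 over the other 4 groups lay below the dimmest tested mean. Fabp3 thus passed the filter through the 2 DINP groups of 48 h and had to differ among the groups. No group mean of the other 5 members was near background. The mean log2 signal over all arrays was 13.96 for Fabp1, 13.31 for Fabp5 and 13.17 for Fabp7, at percentiles 96.8, 95.03 and 94.6 of all probe sets. Fabp4 averaged 10.24 and Fabp2 9.92, and 1 vehicle array of Fabp2 at 24 h fell below the receptor percentile. Signals of different probe sets cannot be set against each other as amounts of RNA.

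The spread between wells differed as much as the brightness. Fabp7 had a coefficient of variation of the signal between 5.06% and 8.50% in the 6 groups, and Fabp1 one between 6.37% and 10.9%. For Fabp5 it ran from 5.62% to 15.01%, for Fabp2 from 6.20% to 23.2% and for Fabp4 from 8.11% to 31.6%. Fabp3 ranged from 8.54% at 25 mM and 48 h to 73.4% at 25 mM and 24 h, so a change of a given size was easiest to call for Fabp7, Fabp1 and Fabp5.

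**Figure D2:**
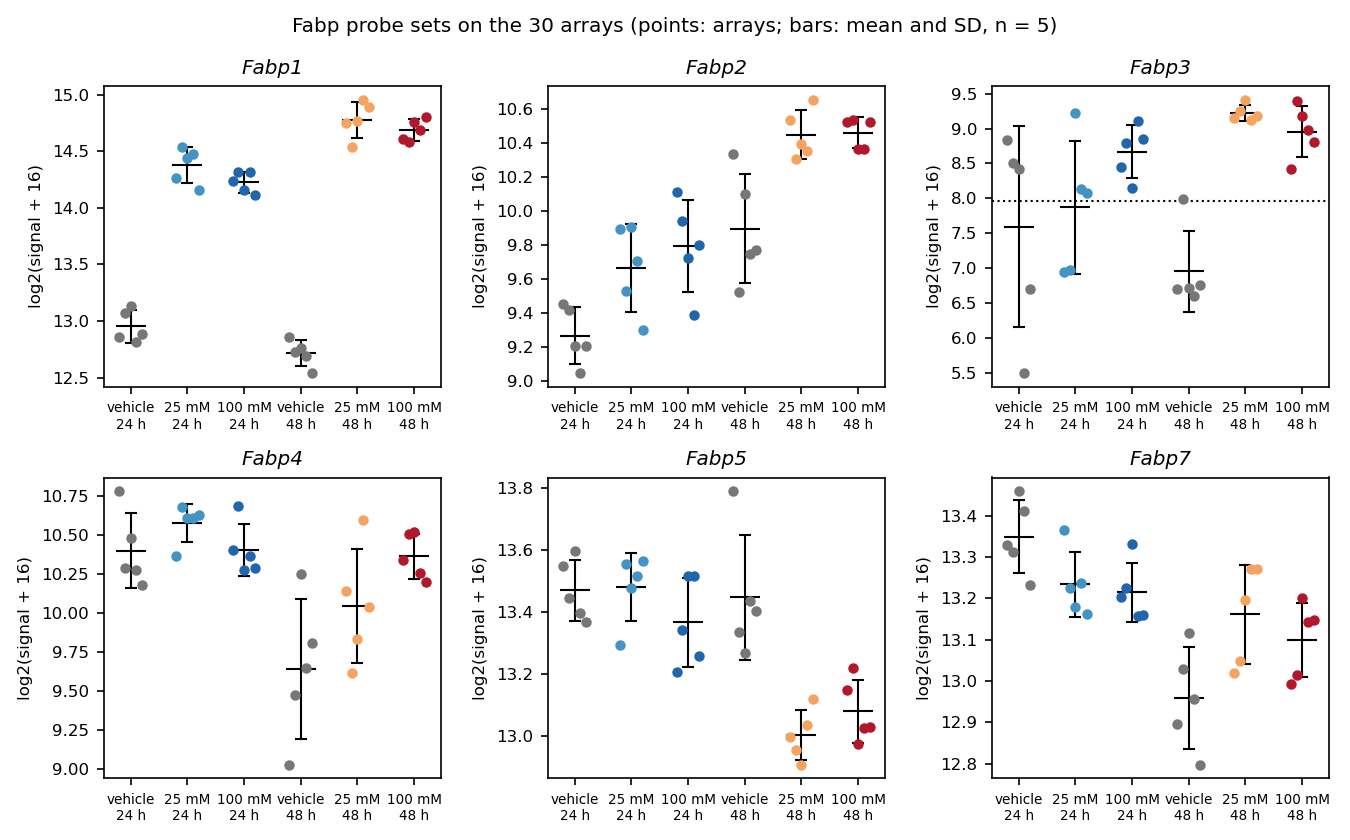
Signal of each Fabp probe set on the log2(signal + 16) scale, with 1 panel per gene and its own vertical range. Points are arrays, bars the mean and SD (n = 5), grouped by vehicle, 25 mM and 100 mM at 24 and 48 h, and the dotted line in the Fabp3 panel is the dimmest tested mean. Every DINP array of Fabp1 lies above every vehicle array, the DINP arrays of Fabp5 at 48 h lie below the vehicle arrays of that time, and the 24 h vehicle arrays of Fabp3 spread from 5.50 to 8.84.

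Each dose was compared with the vehicle of its own time, so that both doses at a time share 1 set of vehicle arrays. At 24 h, 1 member passed the test at 25 mM (Fabp1) and 2 at 100 mM (Fabp1 and Fabp2), both upward, where 5.85% and 5.55% of all tested probe sets were called higher and 7.49% and 6.74% lower. At 48 h, Fabp1, Fabp2, Fabp3 and Fabp7 rose and Fabp5 fell at 25 mM, where 7.41% of tested probe sets were called higher and 10.5% lower. At 100 mM and 48 h, Fabp1, Fabp2, Fabp3 and Fabp4 rose and Fabp5 fell, beside 6.49% called higher and 8.07% lower. Fabp3 passed the filter only through the DINP groups of 48 h, so its calls there are not weighed against these shares. Calls are limma's, at an adjusted p under 0.05 over 18625 probe sets, with 5 arrays against 5, and ± beside a log2 difference is limma's standard error. Differences were taken after adding 16 to the signal, which shrinks those of dim genes. The median difference over all tested genes lay between -0.06 and -0.02 in the 4 comparisons with the vehicle.

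**Figure D3:**
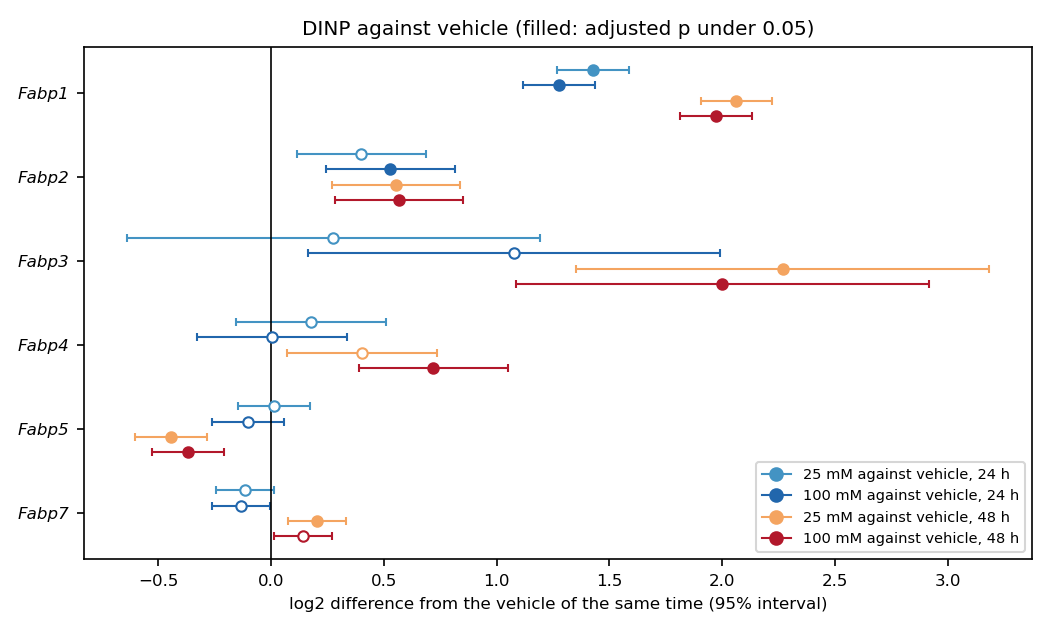
Difference of each DINP group from the vehicle of its time for the 6 Fabp genes (log2, horizontal axis), with bars for the 95% interval from the fit of all groups (n = 5 arrays a group). Filled points have an adjusted p under 0.05. Fabp1 lies between 1.28 and 2.06 in all 4 comparisons, Fabp5 is below 0 at 48 h in both, and the intervals of Fabp3 are the widest.

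Fabp1, the liver member, rose under both doses at both times and rose further from 24 to 48 h. Its 24 h vehicle arrays read 7396, 8608, 8953, 7165 and 7554 (signal), against 19704, 23821, 22275, 22817 and 18247 at 25 mM and 19277, 20414, 18265, 20353 and 17686 at 100 mM. Every DINP array lay far above the highest vehicle array, so the groups did not overlap, as was so for 11.6% of tested probe sets at 25 mM and 11.9% at 100 mM in either direction. The rise was 1.43 ± 0.08 at 25 mM (log2, 2.69-fold, adjusted p = 1.62e-15) and 1.28 ± 0.08 at 100 mM (2.42-fold, adjusted p = 3.84e-14).

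At 48 h the Fabp1 vehicle arrays read 7415, 6774, 6909, 6604 and 5934, and the 25 mM arrays read 27486, 23771, 27814, 31770.5 and 30360.2. Those at 100 mM read 24948, 24527, 27739, 26319 and 28542. Again no DINP array reached down to a vehicle array, as for 10.9% and 10.6% of tested probe sets at the lower and the higher dose. The difference was 2.06 ± 0.08 at 25 mM (4.18-fold, adjusted p = 1.73e-19) and 1.97 ± 0.08 at 100 mM (3.92-fold, adjusted p = 6.64e-19). Among 10604 tested genes, 25 rose more than Fabp1 at 25 mM and 26 at 100 mM at 24 h, and 8 and 7 at 48 h.

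The growth of the Fabp1 effect with time was tested as such. The 48 h effect exceeded the 24 h effect by 0.64 ± 0.11 at 25 mM (adjusted p = 0.0027) and by 0.70 ± 0.11 at 100 mM (adjusted p = 0.00311), calls that only 0.242% and 0.0644% of tested probe sets reached in either direction. With each array centred on its median, the value at 25 mM was 0.56 with an adjusted p of 0.10. The means of all arms moved: from 24 to 48 h the log2 mean changed by 0.40 at 25 mM and by 0.46 at 100 mM, and fell by 0.24 ± 0.08 in the vehicle (adjusted p = 0.039). That vehicle fall was called beside 7.68% of tested probe sets, with overlapping arrays, and it lost its call with no filter (adjusted p = 0.0635), with arrays centred on the median (0.124), without the variance trend (0.0699) or in a fit of the 2 groups alone (0.0651). Leaving out 1 of vehicle 24 h replicates 2 and 3 or vehicle 48 h replicates 2, 4 and 5 also ended it, with differences between -0.24 and -0.19.

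Fabp2, the intestinal member, was called higher in 3 of the 4 comparisons with the vehicle, by less than 1.5-fold. At 24 h its vehicle arrays read 683, 668, 574, 512 and 574, those at 25 mM 936, 722, 942, 818 and 612, and those at 100 mM 1091, 967, 830.2, 653 and 875. The groups overlap through the lowest DINP array, 612 or 653, which lies below the highest vehicle arrays. The difference was 0.53 ± 0.14 at 100 mM (1.44-fold, adjusted p = 0.00941) and 0.40 ± 0.14 at 25 mM (adjusted p = 0.0532), which missed the threshold. It passed with median centring (0.48, adjusted p = 0.0176), quantile normalisation (0.47, adjusted p = 0.0175), array weights, the stricter filter, the block by rounds of arrays, or with vehicle replicate 1 (adjusted p = 0.045) or DINP replicate 5 (adjusted p = 0.017) left out.

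At 48 h the Fabp2 vehicle arrays read 1278, 721, 1081, 842 and 857, against 1471, 1249.6, 1328, 1293 and 1598 at 25 mM and 1457, 1468, 1303, 1301 and 1454 at 100 mM. One vehicle array, 1278, reached into the range of the 25 mM arrays. The 100 mM arrays all lay above the vehicle, in a comparison where arrays did not overlap for 10.6% of tested probe sets in either direction. The rise was 0.55 ± 0.14 at 25 mM (1.47-fold, adjusted p = 0.00441) and 0.57 ± 0.14 at 100 mM (1.48-fold, adjusted p = 0.00433). Time alone moved Fabp2 by a like amount: in the vehicle it rose by 0.63 ± 0.14 from 24 to 48 h (1.55-fold, adjusted p = 0.00187) with no overlap, in a comparison where 6.67% of tested probe sets were called higher and arrays did not overlap for 10.4% in either direction. The DINP effect on Fabp2 changed with time by 0.15 ± 0.20 at 25 mM and 0.04 ± 0.20 at 100 mM (adjusted p = 0.911 and 0.994). Of 8 enterocyte markers listed, 6 were on the array and 4, Vil1, Cdx1, Alpi and Muc13, fell below the filter. The other two did not pass the test in any of these comparisons. The summed signal of all 6, mostly that of Apoa4, which hepatocytes also make, ran at 48 h from 90499.8 to 117585 in the vehicle, 99335 to 116332 at 25 mM and 104063 to 135219 at 100 mM.

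Fabp3, the heart and muscle member, was above background, by the criterion given, only in the DINP cultures at 48 h. At 100 mM its mean was 8.67 at 24 h and 8.95 at 48 h. The receptor percentile of those groups was 9.13 and 8.74, so their different standing also reflects the lower percentile at 48 h. The Fabp3 vehicle arrays of 48 h read 88.3, 239, 88.7, 81.0 and 92.8. Those at 25 mM read 553, 592, 666, 543 and 562, and those at 100 mM read 327, 655, 563, 488 and 433. All 10 DINP arrays lay above the highest vehicle array, replicate 2, which stood apart from the other four. Such separation, in either direction, held for 10.9% of tested probe sets at 25 mM and 10.6% at 100 mM. Fabp3 passed the filter through these DINP groups, so its separation is not weighed against those shares. The fitted differences were 2.27 ± 0.45 (adjusted p = 0.000335) and 2.00 ± 0.45 (adjusted p = 0.00173), and with no filter the adjusted p-values were 0.000672 and 0.00335. These sizes depend on the added constant: they came to 2.43 and 2.15 with 1 in its place, and to 1.89 and 1.65 with 64. Each vehicle array was then raised to the receptor percentile of its group, 8.43, the higher of the 2 background levels. On that footing the Fabp3 mean was 1.74-fold higher at 25 mM and 1.44-fold higher at 100 mM. These are point values without an interval, and the receptor percentiles of the DINP groups themselves were higher, at 8.69 and 8.74.

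At 24 h the Fabp3 arrays did not separate by group. The vehicle arrays read 441, 348, 327, 29.2 and 88.3, those at 25 mM 107, 110.3, 582, 264 and 254, and those at 100 mM 334, 428, 267, 538 and 446. Both the vehicle and the 25 mM arrays fell into low and high values, while no 100 mM array was as low as the lowest pair of either group. The differences were 0.28 ± 0.45 (adjusted p = 0.77) and 1.08 ± 0.45 (adjusted p = 0.122). Without vehicle 24 h replicate 1 the difference at 100 mM was 1.39 with an adjusted p of 0.0452, and that at 25 mM turned to -0.25 without vehicle 24 h replicate 4, the array at 29.2, and to -0.06 without DINP 25 mM 24 h replicate 3. The effect at 25 mM grew with time by 1.99 ± 0.63 (adjusted p = 0.301), or 2.52 without vehicle 24 h replicate 4 (adjusted p = 0.0313). All 3 groups at 24 h and the 48 h vehicle were near background, so the differences among them, and the change with time that rests on them, give no firm size. Muscle markers gave no calls: of 7 on the array, Myh6, Myh7, Tnnt2, Mb and Tnni3 were below the filter, and the summed signal of all 7 ran from 887 to 1973 in the vehicle at 48 h, 1243 to 1535 at 25 mM and 887 to 1679 at 100 mM.

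Fabp4, the adipocyte and macrophage member, had its lowest mean in the 48 h vehicle cultures and rose at 100 mM there. At 48 h its arrays read 506, 696, 1202, 784 and 879 in the vehicle, 1111, 769, 894, 1528 and 1036 at 25 mM, and 1277, 1434, 1449.8, 1205 and 1156 at 100 mM. The 100 mM arrays exceeded every vehicle array except replicate 3, at 1202, and the 25 mM arrays were interleaved with the vehicle. Fabp4 rose by 0.72 ± 0.16 at 100 mM (1.65-fold, adjusted p = 0.00191). At 25 mM the difference was 0.40 ± 0.16 (adjusted p = 0.0879), or 0.56 when vehicle replicate 3 was left out (adjusted p = 0.012) and 0.51 when DINP replicate 2 was (adjusted p = 0.0287).

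At 24 h the Fabp4 signal ran from 1144 to 1739.8 in the vehicle, 1302 to 1619 at 25 mM and 1224 to 1628 at 100 mM. The 3 groups overlapped, with differences of 0.18 ± 0.16 at 25 mM and 0.00 ± 0.16 at 100 mM (adjusted p = 0.563 and 0.992), the second of which took the other sign with array weights. From 24 to 48 h Fabp4 fell by 0.76 ± 0.16 in the vehicle (1.69-fold lower, adjusted p = 0.00145), with overlapping arrays, and the mean at 100 mM moved by -0.04. The test of the change in the 100 mM effect gave 0.72 ± 0.23 (adjusted p = 0.457).

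At 100 mM and 48 h, where Fabp4 rose, 2 of 8 tested macrophage markers were called, both higher. Of all tested genes, 8.69% were called higher and 9.20% lower there, and 9.78% and 12.1% at 25 mM and 48 h. In the vehicle, 7.68% of tested probe sets were called lower from 24 to 48 h. Of 12 listed, 11 were on the array, and Adgre1, Cd163 and Ptprc were below the filter. Of 8 tested, Cd5l, C1qa and C1qb fell in the vehicle from 24 to 48 h, by 1.22 ± 0.19, 0.46 ± 0.14 and 0.92 ± 0.24, and Cd5l and C1qb were higher under both doses at 48 h, by 0.78 and 0.79 at 25 mM and by 0.76 and 0.94 at 100 mM. Cd5l and C1qb averaged 7.62 and 7.72 (log2) in the 48 h vehicle, below the dimmest tested mean. Under DINP at 48 h they averaged 8.41 and 8.51 at 25 mM and 8.38 and 8.66 at 100 mM. The receptor percentiles there were higher, at 8.69 and 8.74. The other tested markers, Cd68, Csf1r, Aif1, Clec4f, C1qa and C1qc, were not called under DINP at 48 h. In that order they differed by 0.16, 0.04, 0.14, -0.10, 0.17 and -0.0058 at 25 mM. At 100 mM they differed by 0.19, -0.01, 0.26, -0.0043, 0.24 and 0.22. At 24 h C1qc alone was called, at 25 mM. The summed macrophage signal ran from 5540 to 6391 in the vehicle at 24 h, and from 3928 to 5142 in the vehicle, 4866 to 5360 at 25 mM and 4841 to 5832 at 100 mM at 48 h. Adipoq and Lep, which define adipocytes, were below the filter. Of 5 tested adipocyte markers, Cidea and Pck1 were higher in all 4 comparisons and Cfd at both doses of 48 h. Cidea is a lipid droplet protein, and hepatocytes use Pck1 to make glucose. Over all tested genes, 7.87%, 7.54%, 9.78% and 8.69% were called higher in the 4 comparisons. Cfd averaged 8.36 in the 48 h vehicle, below the receptor percentile of 8.43. The remaining tested markers, the lipid droplet protein Plin1 and the lipase Lipe, were not called: Plin1 differed by -0.17, -0.60, -0.34 and -0.69 in the 4 comparisons, and Lipe by 0.14 and 0.11 at 24 h and -0.16 and -0.21 at 48 h. The summed adipocyte signal, mostly that of Cidea, ran from 26779 to 33214 in the vehicle at 48 h, from 43590 to 46708 at 25 mM and from 41849 to 47135 at 100 mM. The part of either cell type in the Fabp4 result was not tested.

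Fabp5, the epidermal member, was the only member called lower under DINP, and only at 48 h. Its vehicle arrays of that time read 14148, 10336, 9853, 11068 and 10829, against 8165, 7926, 7674, 8390.2 and 8879 at 25 mM and 9068, 9525, 8041, 8331 and 8348 at 100 mM. All DINP arrays lay below all vehicle arrays, the closest pair being 9525 and 9853. Arrays did not overlap, in either direction, for 10.9% of tested probe sets at 25 mM and 10.6% at 100 mM. Fabp5 fell by 0.44 ± 0.08 at 25 mM (1.36-fold lower, adjusted p = 7.35e-05) and by 0.37 ± 0.08 at 100 mM (1.29-fold lower, adjusted p = 0.001). With arrays centred on the median the fall at 100 mM was 0.26 (difference -0.26, adjusted p = 0.0853) and no longer passed.

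Before that, at 24 h, Fabp5 signals ran from 10554 to 12368 in the vehicle, 10036 to 12108 at 25 mM and 9432 to 11695 at 100 mM, and the groups overlapped. The differences were 0.01 ± 0.08 (adjusted p = 0.956), which turned to -0.06 with quantile normalisation, and -0.10 ± 0.08 (adjusted p = 0.46). The change of the effect with time was -0.46 ± 0.11 at 25 mM (adjusted p = 0.0734) and -0.26 ± 0.11 at 100 mM (adjusted p = 0.707). The first passed with the stricter filter (adjusted p = 0.048), when replicate 1 of the 24 h DINP group was left out (-0.50, adjusted p = 0.0313) and when vehicle replicate 3 of 48 h was (-0.50, adjusted p = 0.0389). In the vehicle, Fabp5 differed by -0.02 ± 0.08 between the times (adjusted p = 0.90). Among markers of bile duct cells, an epithelium, Epcam was lower at 48 h by 0.35 ± 0.07 at 25 mM (difference -0.35, adjusted p = 0.000796) and by 0.22 ± 0.07 at 100 mM (difference -0.22, adjusted p = 0.0422). In the vehicle Epcam rose from 24 to 48 h by 0.47 ± 0.07 (adjusted p = 4.3e-05). Krt19, the other tested marker of these cells, was not called, with differences at 48 h of -0.23 at 25 mM and 0.33 at 100 mM. The list had 6 genes on the array, with Krt7, Spp1, Cftr and Cldn4 below the filter, and its summed signal at 48 h was 12049 to 14883 in the vehicle, 9221 to 12225 at 25 mM and 10955 to 12899 at 100 mM. Its part in the Fabp5 result was not tested.

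Fabp7, the brain member, was bright in these cultures and moved little. At 48 h its arrays read 7601, 8339, 8870.1, 7934 and 7103 in the vehicle, 8290.0, 8454, 9363, 9865 and 9876 at 25 mM, and 8141, 8254, 9393, 9029 and 9053 at 100 mM. The DINP and vehicle arrays overlapped at both doses. The rise at 25 mM was 0.20 ± 0.06 (1.15-fold, adjusted p = 0.0226) and the difference at 100 mM was 0.14 ± 0.06 (adjusted p = 0.143).

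Neither side of the threshold was firm for Fabp7. With arrays centred on the median it was the 100 mM difference that passed (0.24, adjusted p = 0.0181) and the 25 mM one that did not (0.20, adjusted p = 0.0515). The call at 25 mM was also lost in a fit of just the 2 groups compared (adjusted p = 0.104). Leaving out vehicle replicate 5 (0.0869) or treated replicate 3 (0.0515), replicate 4 (0.0716) or replicate 5 (0.0718) ended it as well. At 24 h signals ran from 9609 to 11251 in the vehicle, 9151 to 10538 at 25 mM and 9123 to 10298 at 100 mM, with differences of -0.12 ± 0.06 and -0.13 ± 0.06 (adjusted p = 0.262 and 0.181). From 24 to 48 h Fabp7 fell in the vehicle by 0.39 ± 0.06 (1.31-fold lower, adjusted p = 5.21e-05), with no overlap between the times. In that comparison 7.68% of tested probe sets were called lower, and arrays did not overlap for 10.4% in either direction. The change of the DINP effect with time was 0.32 ± 0.09 at 25 mM and 0.27 ± 0.09 at 100 mM (adjusted p = 0.174 and 0.467). Of 7 glial markers on the array, Slc1a2, Aqp4 and Olig2 were below the filter, and of 4 tested only Slc1a3, an astrocyte glutamate transporter, was called, lower at 24 h at 25 mM and 100 mM (differences -0.58 and -0.62). Slc1a3 averaged 8.65 in the 24 h vehicle, 8.08 at 25 mM and 8.03 at 100 mM. These means lie below the receptor percentiles of 9.07, 9.12 and 9.13. The summed glial signal at 48 h was 1988 to 2789 in the vehicle, 1933 to 2744 at 25 mM and 1698 to 2490 at 100 mM.

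The doses did not separate any member. Between 100 and 25 mM, 0.0107% of tested probe sets were called at 24 h and 0.00537% at 48 h, and no member was among them. For Fabp1 the higher dose minus the lower was -0.15 at 24 h (95% interval -0.31 to 0.01) and -0.09 at 48 h (-0.25 to 0.07), the latter turning to 0.01 with arrays centred on the median. For Fabp5 it was -0.11 at 24 h (-0.27 to 0.04) and 0.08 at 48 h (-0.08 to 0.24). Fabp7 gave the narrowest intervals, -0.15 to 0.11 at 24 h and -0.19 to 0.07 at 48 h. Fabp2 gave -0.16 to 0.41 at 24 h and -0.27 to 0.30 at 48 h. Fabp4 gave -0.51 to 0.16 at 24 h and -0.01 to 0.65 at 48 h, and Fabp3 gave -0.11 to 1.71 and -1.18 to 0.65, so for Fabp3 and Fabp4 differences of over 1.5-fold between the doses remain within the interval.

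Genes that receive, activate or carry fatty acids beside the Fabp proteins changed in both directions. Of 18 tested of 20 listed, 7 rose and 4 fell at 25 mM and 10 rose and 4 fell at 100 mM at 24 h, then 7 rose and 3 fell, and 9 rose and 3 fell, at 48 h. The list's median was 0.22, 0.22, 0.19 and 0.21, and of all 10604 tested genes 7.87%, 7.54%, 9.78% and 8.69% were called higher and 7.84%, 7.02%, 12.1% and 9.20% lower in the same order. Acsl1, which couples fatty acids to coenzyme A, rose by between 1.83 ± 0.09 (100 mM, 24 h) and 2.10 ± 0.09 (25 mM, 24 h). The fatty acid transport protein Slc27a2 rose by 0.56 to 0.60 and the uptake receptor Cd36 by 0.51 at 25 mM and 0.70 at 100 mM at 24 h. At 48 h Cd36 differed by 0.38 at 25 mM (adjusted p = 0.0664) and 0.46 at 100 mM (adjusted p = 0.0286), and the first passed with the 60th percentile filter (0.0463), quantile normalisation (0.0456), only the compared groups (0.0247), the block by rounds of arrays (0.0119), or without vehicle replicate 1 (0.0451) or DINP replicate 2 (0.0398). The second call was lost when 1 of vehicle replicates 2, 3, 4 and 5 or DINP replicates 3, 4 and 5 was left out, with differences from 0.35 to 0.45. The 25 mM call of Cd36 at 24 h was lost without vehicle replicate 4 (0.46, adjusted p = 0.0505) and without DINP replicate 5 (0.38, adjusted p = 0.0688). The cytosolic carriers Dbi, which binds acyl-CoA, and Scp2, which binds sterols and acyl-CoA, were called higher in all 4 comparisons, Dbi by 0.19, 0.20, 0.35 and 0.42 and Scp2 by 0.34, 0.30, 0.44 and 0.44. Cav1, the coat protein of caveolae, fell by 0.92 at 25 mM and 0.86 at 100 mM at 24 h and by 1.41 and 1.31 at 48 h. With the median over its probe sets, the 100 mM fall of Cav1 at 24 h had an adjusted p of 0.0698, and the list then had 2 falls in that comparison in place of 4.

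Relatives of the Fabp family were mostly too dim to test. Of 10 listed lipid-binding proteins of the same fold, 8 were on the array and 3 passed the filter: Fabp12, the cellular retinol-binding protein Rbp7 and the retinoic acid-binding protein Crabp1. Fabp12 rose at 48 h, by 0.58 ± 0.11 at 25 mM (adjusted p = 0.000248) and 0.52 ± 0.11 at 100 mM (adjusted p = 0.00115). Its DINP and vehicle arrays did not overlap, as for 10.9% and 10.6% of tested probe sets in either direction. At 24 h its differences were 0.18 ± 0.11 and 0.28 ± 0.11 (adjusted p = 0.33 and 0.108), and the second passed with vehicle replicate 3 (0.39, adjusted p = 0.0136) or DINP replicate 4 (0.36, adjusted p = 0.037) left out. Rbp7 and Crabp1 were not called, but 1 fall was added to this list at 25 mM and 48 h without vehicle replicate 5, and at 100 mM and 48 h without that array or DINP replicate 4 and with the 60th percentile filter.

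Fatty acid genes known to respond to PPAR-alpha rose almost throughout. Of 27 tested of 30 listed, 26, 26, 25 and 26 were called higher in the 4 comparisons and 0 lower, with medians of 1.03, 0.95, 1.09 and 0.97. Over all tested genes the shares called higher were 7.87%, 7.54%, 9.78% and 8.69%. The counts of the list were known when it was used, so they describe the setting of the Fabp1 rise and are no separate evidence for it. Ehhadh, an enzyme of peroxisomal beta-oxidation, rose by 3.05 ± 0.10 at 25 mM and 24 h and by 2.81 ± 0.10 at 48 h. The fatty acid hydroxylase Cyp4a1 rose by 2.59 and 2.50, and Pdk4, a kinase that restrains pyruvate oxidation, by 2.63 and 2.04, in the same comparisons. Beside these stand the values of 1.43 and 2.06 for Fabp1.

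**Figure D4:**
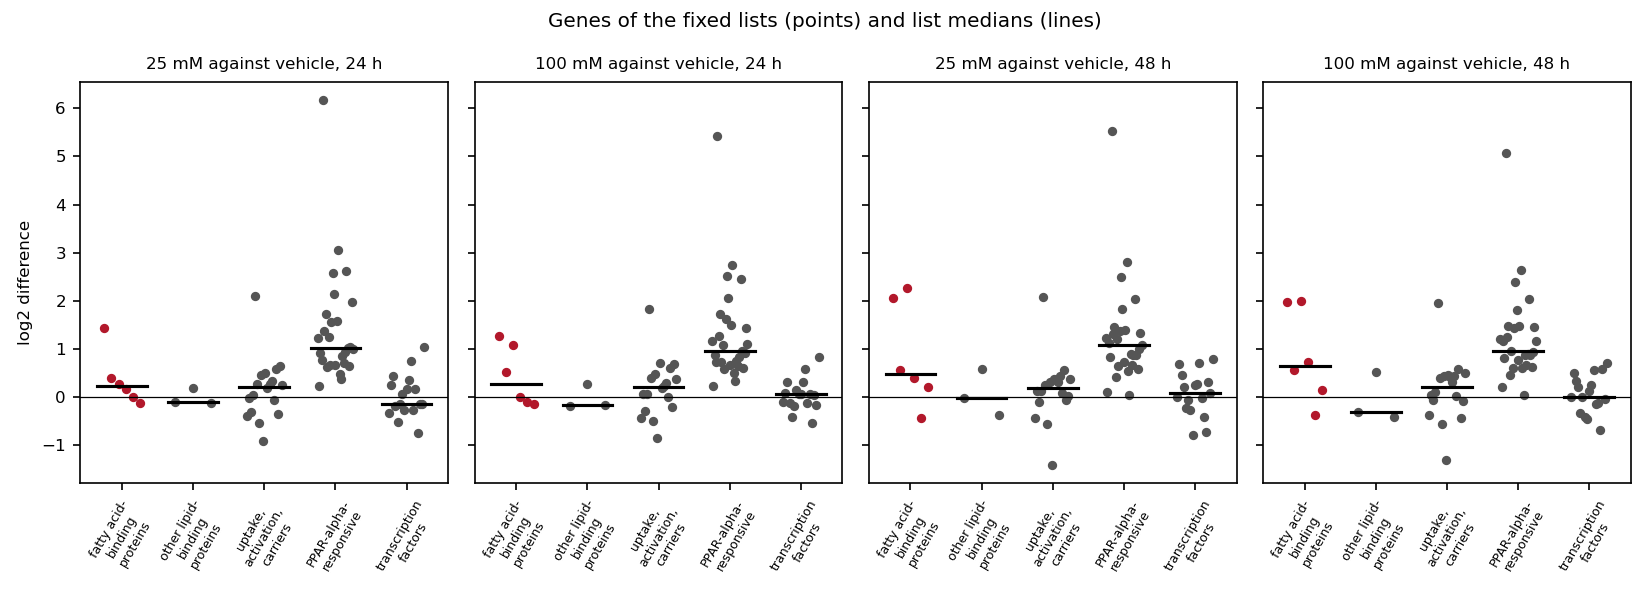
Log2 difference from the vehicle for each tested gene of the 5 groups of genes (points) and the median of each group (line), with 1 panel for each dose and time. The Fabp genes, in red, range from below 0 to 2.27, and the PPAR-alpha-responsive genes lie above 0 in every panel.

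Transcription factors that act on Fabp genes changed in both directions, by up to 1.04 (log2). Of 17 tested of 20 listed, 4, 4, 6 and 4 rose and 3, 2, 1 and 3 fell in the 4 comparisons, with medians of -0.14, 0.06, 0.08 and 0.01. Of all tested genes 7.87%, 7.54%, 9.78% and 8.69% were called higher and 7.84%, 7.02%, 12.1% and 9.20% lower. The 3 falls at 100 mM and 48 h became 1 without vehicle replicate 3, with either other scaling or in a fit of the 2 groups alone, and the 1 fall at 25 mM and 48 h became 2 without DINP replicate 1 or with probe sets of a gene summarised by their median. With that summary the 2 falls at 100 mM and 24 h became 1. Ppara itself, at a mean log2 signal of 7.13, was too dim to test. Its partner Rxra, at 8.29, was not called in any of them, and Rxrg, a related partner, rose by 1.04 and 0.83 at 24 h and by 0.78 and 0.71 at 48 h. The bile acid receptor Nr1h4 rose by 0.75, 0.59, 0.71 and 0.57 in the 4 comparisons. The coactivator Ppargc1a fell by 0.75, 0.54, 0.72 and 0.69, though with the median over its probe sets the fall at 100 mM and 24 h had an adjusted p of 0.056. Cebpa, a factor of hepatocyte and adipocyte genes, rose at 48 h by 0.70 ± 0.09 and 0.50 ± 0.09, the second of which was 0.18 (adjusted p = 0.0653) with the median over its probe sets. Its difference at 25 mM and 24 h, 0.25 (adjusted p = 0.061), passed with the 60th percentile filter (0.0438), median centring (0.0278), array weights (0.0255), only the compared groups (0.0498) or without DINP replicate 5 (0.0241). Hnf4a was called at 25 mM and 48 h only (0.25 ± 0.06, adjusted p = 0.00387), and with the median over its probe sets that was 0.17 (adjusted p = 0.257) and its 24 h differences turned negative. In a fit of the 2 groups alone the Hnf4a call had an adjusted p of 0.0558. Its difference at 25 mM and 24 h, 0.17 (adjusted p = 0.0706), passed with the block by rounds (0.0471), array weights (0.0413) or without vehicle replicate 5 (0.0299). Pparg, at 8.73, was not called in any of the 4. Over all arrays Pparg and Rxra averaged below the 95th percentile of the sensory receptor probe sets, 8.82. Their missing calls thus do not show a steady level.

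Genes with the profile most like each member were sought over the 30 arrays, as a description: the correlations mix the groups with the spread between wells. The profile of Fabp1 was closest to Ephx2, an epoxide hydrolase (Pearson r = 0.978), Decr2, a peroxisomal reductase of unsaturated fatty acyl-CoA (0.971), and Acot8, a peroxisomal thioesterase (0.971). Within groups the same pairs had r = 0.20, 0.25 and 0.44. Fabp2 was closest to Tmem223 (0.917), the carboxylesterase Ces1d (0.909) and Fxyd1 (0.897). Fabp5 was closest to the methionyl-tRNA synthetase Mars1 (0.840), the calcium-binding protein S100a6 (0.827) and the mitochondrial folate enzyme Mthfd2 (0.825). Fabp7 was closest to the intramembrane protease Sppl2a (0.834), the phospholipase Pnpla8 (0.830) and Btbd1 (0.820). Fabp3 was closest to Mrpl36 (0.813), Vcpkmt (0.777) and C8h11orf71 (0.761), and Fabp4 to Manea (0.797), Fer1l5 (0.797) and Emc2 (0.766). Over all arrays, the highest correlation of a member other than Fabp1 was thus lower than any of the 3 for Fabp1. Within groups this order did not hold. There r was 0.53, 0.30 and 0.18 for Fabp2, 0.61, 0.51 and 0.48 for Fabp3, and 0.52, 0.53 and 0.46 for Fabp4. For Fabp5 it was 0.56, 0.25 and 0.52, and for Fabp7 0.57, 0.66 and 0.66, with genes in the order named.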

How the data were processed

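Biotin-labelled RNA of 30 cultures was measured on Affymetrix rat arrays, per the labels' protocols. Per the submitters' processing notes the authors used MAS5, whose version is not given in the sources used here, and what they deposited is a linear signal intensity for each probe set and array. The table held 31099 probe sets, 57 of them controls, and no detection calls. The near-equal trimmed means show scaling before deposit. From these values log2(signal + 16) was computed, and tests covered the 18625 of 31042 non-control probe sets whose mean reached the 40th percentile. Symbols came from the platform annotation (20826 probe sets with 1 symbol, 436 with several, 9780 unnamed here), updated for 20758 through the GRCr8 gene table. A gene with several probe sets was represented by its brightest tested one.

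One limma 3.58.1 fit in R 4.3.3 held all 6 groups (24 residual degrees of freedom), with a variance trend, Benjamini-Hochberg adjustment within each of 9 comparisons and a threshold of 0.05. It was tested on simulated data. The precision rests on 5 arrays a group. Replicates are numbered in sample order, and no 2 arrays held identical values. Array numbers in the titles run in 5 rounds. Arrays of one round deviated together little or not at all (median r = 0.00 over 75 pairs, highest 0.0994), but 12 of 30 were most like their own round. The main fit did not treat rounds as a pairing, and whether they reflect one is not settled. Alternatives were the constant, the filter, scaling, variance trend, array weights, groups in the fit, a block by rounds, probe set summary and leaving out each array. The members, the gene lists and the rule for named genes were chosen with earlier results of these data known. By that rule, the text names all members, the 3 genes most correlated with each, up to 4 called list genes of largest difference whose arrays do not overlap (Acot1, named by it, has vehicle levels too dim for a fold), and a fixed set of genes. Markers of endothelial, stellate and lymphoid cells gave no call except Acta2, lower at 100 mM and 48 h, and Lyve1 and Dcn, lower in the vehicle from 24 to 48 h. Lyve1 and Dcn averaged 9.00 and 8.89 in the 24 h vehicle and 8.33 and 8.20 in the 48 h vehicle. The receptor percentiles of these groups were higher, at 9.07 and 8.43. Protein sequences and the promoters of Fabp4 and Fabp5 were not used here.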

Additional observations from a re-analysis of the deposited data

Results flagged for a closer look

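In the vehicle at 48 h, Fabp3 had 1 array, replicate 2, at 7.99 (log2), while the other four lay between 6.60 and 6.77. In the 25 mM cultures at 24 h, Fabp4 had 1 array, replicate 1, at 10.36, below the other four at 10.61 to 10.68. Both are samples far from the rest of their group by Dixon's criterion. Of 36 sets of 5 arrays examined, these 2 stood out, and chance alone gives about 1 in 20.

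The effect of DINP on Fabp1 differed between the times by the test of the difference itself: the 48 h effect was larger by 0.64 at 25 mM (adjusted p = 0.0027) and by 0.70 at 100 mM (adjusted p = 0.00311). With arrays centred on the median the 25 mM value was 0.56 and no longer passed (adjusted p = 0.10).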

How the results depend on the processing

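For the 6 Fabp genes, 1153 of 1215 values under the alternatives kept their direction and their side of the threshold, 17 lost a call, 16 gained one and 29 changed sign. The comparisons of Fabp1 with the vehicle kept theirs under each alternative and each array left out. Fabp2 at 25 mM and 24 h gained a call at 0.40 with the 60th percentile filter (adjusted p = 0.0389), array weights (0.0312) or the replicate block by rounds (0.0286), at 0.48 with median centring and at 0.47 with quantile normalisation. That block ended no call of a member. Fabp7 at 25 mM and 48 h lost its call at 0.20 with median centring or only the compared groups, and at 100 mM gained one at 0.24 with median centring. Fabp5 at 100 mM and 48 h lost its call at -0.26 with median centring. The change with time of the 25 mM effect on Fabp1 lost its call there too, at 0.56. Median centring left 690 probe sets lower at 25 mM and 24 h (1395 without it), 540 at 100 mM and 24 h (1255) and 569 at 100 mM and 48 h (1503), and moved the share of calls that were higher from 43.9%, 45.1%, 41.4% and 44.6% to 65.2%, 70.8%, 40.6% and 75.1%. Quantile normalisation gave 48.8%, 51.0%, 46.4% and 51.7%. The median difference of all probe sets at 100 mM and 48 h was -0.07, and 0.03 with median centring. Signs changed for Fabp1 (0.013) and Fabp7 (0.043) between the doses at 48 h with median centring, for Fabp5 at 25 mM and 24 h (-0.055) and Alb at 100 mM (-0.0053 at 24 h, -0.021 at 48 h) with quantile normalisation, for Fabp4 at 100 mM and 24 h (-0.0011) with array weights, and for Hnf4a at 24 h (-0.020 and -0.049) with the median over probe sets. The cause was not tested.

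Leaving out 1 array gave, at 24 h, 0.34 to 0.49 for Fabp2 at 25 mM, -0.25 to 0.59 and 0.55 to 1.39 for Fabp3 at 25 and 100 mM, -0.066 to 0.099 for Fabp4 at 100 mM, -0.014 to 0.058 for Fabp5 at 25 mM, -0.041 to 0.12 for Pparg, -0.034 to 0.10 for Alb and -0.12 to 0.24 for Rxra at 100 mM, and -0.42 to 0.052 for Rxra at 25 mM. At 48 h it gave 0.25 to 0.56 for Fabp4, 0.16 to 0.24 for Fabp7 and -0.054 to 0.50 for Rxra at 25 mM. Between the doses it gave -0.048 to 0.014 for Fabp7 at 24 h and -0.023 to 0.064 for Fabp2 at 48 h. The change of the 100 mM effect on Fabp2 ran from -0.064 to 0.15 and the vehicle change of Fabp5 from -0.11 to 0.021. Fabp3 has no value with the 60th percentile filter, which it did not pass. Signal near background limits Fabp3 in the vehicle, where sizes depend on the added constant.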
